A study of Mus musculus with 12 samples.

Results

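The genes described here are 8 regulators and markers of the midbrain floor plate, the strip of cells at the ventral midline from which midbrain dopaminergic neurons arise: Lmx1a, Lmx1b, Foxa1, Foxa2, Msx1, Msx2, Corin and Ferd3l. They were taken by name from a table of read counts, where each had 1 of the 23965 gene rows. Total RNA was sequenced from neurospheres, free-floating clusters of dividing neural progenitors, which had been grown from ventral midbrain tissue of E11.5 embryos of CD-1 mice. After 3 days of expansion the spheres spent 5 h in N2 medium with one of 4 additions. These were GW3965 together with CT99021, CT99021 alone, GW3965 alone, or the vehicle DMSO, called Control here, with 3 libraries per group numbered 1 to 3 in the labels. GW3965 activates the liver X receptors (LXR), nuclear receptors for oxysterols, and CT99021 inhibits glycogen synthase kinase 3 beta, which stabilises beta-catenin and so turns on Wnt target genes. Whether the libraries of a group came from separate cultures is not stated in the labels, and every p-value rests on the variation among these libraries alone, possibly technical.

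Floor plate cells are induced by Sonic hedgehog (Shh), and the forkhead factors Foxa1 and Foxa2 act early and late in them, from patterning to the differentiation of dopaminergic neurons. Lmx1a and Lmx1b are LIM homeodomain factors of dopaminergic progenitors, and in the mouse Lmx1a and Wnt1 are known to regulate each other there. Msx1 is a homeodomain factor downstream of Lmx1a in these progenitors, and it and its paralogue Msx2 are also expressed in roof plate, neural crest and mesenchyme. Corin is a membrane serine protease used to sort floor plate cells, and Ferd3l (also known as Nato3) is a basic helix-loop-helix factor of the floor plate.

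Lmx1b passed the test with CT99021 while its paralogue Lmx1a did not, and the paralogues Foxa1 and Foxa2 had different patterns over the libraries, so the promoters of these 4 genes are shown. RefSeq promoters on GRCm38.p6, from 250 bases before to 50 bases after a gene start, were matched for 8 of the 8 genes and held 10 start sites. Capitals mark letters that match 1 of 5 short motifs searched on both strands, and no 2 matches overlapped.
Lmx1a, chr1:167689308-167689607, plus strand: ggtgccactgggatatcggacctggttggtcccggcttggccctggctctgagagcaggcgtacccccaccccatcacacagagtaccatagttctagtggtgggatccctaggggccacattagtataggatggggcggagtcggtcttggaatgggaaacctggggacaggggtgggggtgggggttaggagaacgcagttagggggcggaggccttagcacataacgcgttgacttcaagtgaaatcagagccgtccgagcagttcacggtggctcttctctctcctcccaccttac
Lmx1b, chr2:33641049-33641348, minus strand: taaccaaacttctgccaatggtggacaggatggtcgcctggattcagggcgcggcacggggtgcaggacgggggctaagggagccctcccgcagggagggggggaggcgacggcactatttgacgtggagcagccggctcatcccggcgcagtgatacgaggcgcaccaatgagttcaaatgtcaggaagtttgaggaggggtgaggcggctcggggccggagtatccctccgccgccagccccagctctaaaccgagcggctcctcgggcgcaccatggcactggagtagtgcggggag
Foxa1, chr12:57546062-57546361, minus strand: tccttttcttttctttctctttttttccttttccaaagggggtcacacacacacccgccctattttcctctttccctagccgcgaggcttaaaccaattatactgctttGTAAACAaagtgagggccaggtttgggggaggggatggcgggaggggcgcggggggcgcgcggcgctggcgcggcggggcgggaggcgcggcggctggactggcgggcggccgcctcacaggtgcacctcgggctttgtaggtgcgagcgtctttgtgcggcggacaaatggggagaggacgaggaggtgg
Foxa2 start site 3, chr2:148045415-148045714, minus strand: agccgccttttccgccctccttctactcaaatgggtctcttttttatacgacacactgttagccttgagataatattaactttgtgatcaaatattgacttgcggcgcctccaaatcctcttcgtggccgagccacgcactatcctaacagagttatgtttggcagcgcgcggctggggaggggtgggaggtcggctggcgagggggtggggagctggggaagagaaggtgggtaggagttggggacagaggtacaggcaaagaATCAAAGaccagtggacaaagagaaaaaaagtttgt

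The motifs were CTTTGAA and CTTTGAT, letters bound by the TCF/LEF partners of beta-catenin, TGTTTAC and TGTTTGC, letters bound by forkhead factors, and GGGTGGTC, the core bound by Gli factors of the Shh pathway. CTTTGAT matched on the strand opposite to the one printed in the Foxa2 promoter, as it did in 3.73% of 32851 RefSeq promoters of the same length. TGTTTAC matched in the same orientation in the Foxa1 promoter, and in 3.65% of all promoters. The windows of the other 6 genes, and those of the other 2 Foxa2 start sites, held none of the 5. The remaining motifs were in 5.14% (CTTTGAA), 5.07% (TGTTTGC) and 0.807% (GGGTGGTC) of all promoters.

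Each library held between 9646424 and 21314093 counts in gene rows. Genes of the midbrain (Otx2, En1, En2, Pax2 and Pax5, 5 of 5 past the low-count filter) summed to 211 to 526 CPM per library, where CPM is a count scaled to the size of its library. Forebrain markers summed to 25.4 to 97.5 CPM, diencephalon markers to 51.9 to 102.8 CPM and hindbrain and spinal cord markers to 4.93 to 35.8 CPM. The compounds acted on their check genes: 5 of 5 Wnt feedback and target genes rose with CT99021 (Axin2 by 1.68 ± 0.14 on the log2 scale), and 3 of 3 LXR targets rose with GW3965 (Srebf1 by 1.40 ± 0.09). Without the block 0 of the 5 and 0 of the 3 passed in these comparisons, with edgeR adjusted p of at least 0.174 and 0.153. Markers of mesenchyme and pericytes (10 of 10 past the filter) summed to 2668 to 4073 CPM in the 4 libraries numbered 3, to 1224 to 2302 CPM in those numbered 1 and to 240.5 to 961 CPM in those numbered 2. The 961 CPM belonged to the library with both compounds, and the other 3 libraries numbered 2 held at most 355.5 CPM. Libraries numbered 3 stood apart from the rest in most genes, as described below, and the test of a treatment therefore carries the replicate number as a block unless a sentence says otherwise.

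All 8 genes were detected in all 12 libraries and passed the low-count filter that left 15608 gene rows. Per kilobase of listed transcript in the Control libraries, Lmx1b had the highest mean level, 14.2 ± 1.18 CPM per kb (SD, n = 3), followed by Foxa1 at 10.4 ± 8.36, Foxa2 at 7.25 ± 6.73 and Lmx1a at 6.65 ± 4.92 CPM per kb. Corin came next at 5.38 ± 8.08, then Ferd3l at 4.52 ± 5.77, Msx1 at 4.46 ± 1.96 and Msx2 at 3.99 ± 1.95 CPM per kb. Every neighbouring pair in this order differed by less than the larger SD of the 2. In the files, on mm9, the genes are listed at position 169619588 of chromosome 1 (Lmx1a), 33420055 of chromosome 2 (Lmx1b), 58641618 of chromosome 12 (Foxa1), 147868613 of chromosome 2 (Foxa2), 38211729 of chromosome 5 (Msx1), 53562249 of chromosome 13 (Msx2), 72691263 of chromosome 5 (Corin) and 34613189 of chromosome 12 (Ferd3l). The base from which positions count is not given in the sources used here.

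**Figure D1:**
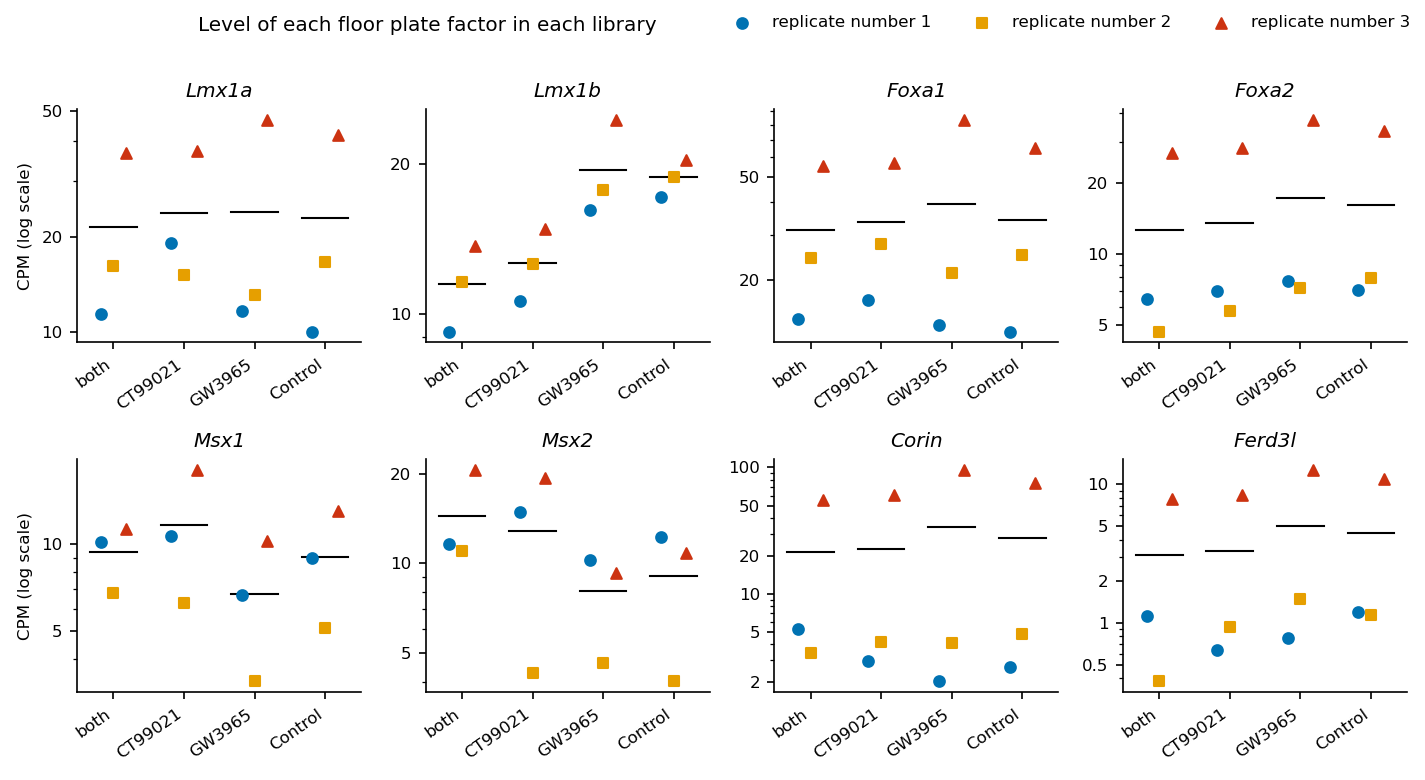
CPM of each gene on a log axis by treatment group ("both" is GW3965+CT99021), 1 point per library with its replicate number and a bar at the arithmetic group mean. Lmx1b is lower in all 6 libraries with CT99021 (9.24 to 14.8 CPM) than in all 6 without (16.1 to 24.4 CPM). Every gene but Msx2, Lmx1b included, is highest in the library numbered 3 of each group.

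Lmx1b, the LIM homeodomain factor, was the 1 gene of the 8 that passed as lower with CT99021 against Control. It was also the 1 that passed as lower with both compounds against Control. Foxa2 and Ferd3l were lower in 3 of 3 replicate numbers in both comparisons but did not pass. For libraries numbered 1, 2 and 3 Lmx1b had 9.24, 11.6 and 13.7 CPM with GW3965+CT99021 and 10.6, 12.6 and 14.8 CPM with CT99021. It had 16.1, 17.7 and 24.4 CPM with GW3965, and 17.2, 18.8 and 20.3 CPM in Control. The libraries with CT99021 did not overlap those without it, whether or not GW3965 was present. In bulk RNA, fewer cells of a type and less RNA per cell cannot be told apart.

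Lmx1b fell by 0.58 ± 0.11 on the log2 scale (0.670-fold, SE) with CT99021 against Control, with an edgeR adjusted p of 0.00830, and was lower in 3 of 3 replicate numbers. It fell by 0.72 ± 0.11 (0.605-fold) with GW3965+CT99021 against Control, with an edgeR adjusted p of 0.00250. Against GW3965 alone it fell by 0.75 ± 0.11 with both compounds (0.594-fold), with an edgeR adjusted p of 0.00212. These counts stand against a background of 15.8% of all genes tested past the same test with CT99021, 20.3% with GW3965+CT99021 against Control and 20.6% with GW3965+CT99021 against GW3965. Groups did not overlap in 14.8%, 17.3% and 15.4% of all genes tested in these 3 comparisons.

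Without the block, edgeR passed 0 of the 8 genes in all 6 comparisons, and Lmx1b had adjusted p of 0.428 with CT99021 and 0.205 with both compounds against Control. That fit passed 0.0577% of all genes with CT99021, 0.115% with GW3965+CT99021 and 0% with GW3965, each against Control, and 1514, 1867 and 23 genes had an unadjusted p under 0.05 there. With the block, the Lmx1b call with CT99021 was lost without Control replicate 1 (edgeR adjusted p = 0.0555) and without Control replicate 2 (edgeR adjusted p = 0.0532). In the 8 libraries numbered 1 and 2 alone Lmx1b fell by 0.65 with CT99021 and by 0.82 with both compounds against Control, with edgeR adjusted p of 0.00858 and 0.00387.

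No difference in Lmx1b was detectable with GW3965. The log2 fold change was 0.03 ± 0.11 with GW3965 against Control (95% interval -0.21 to 0.26) and -0.15 ± 0.11 with GW3965+CT99021 against CT99021 (-0.40 to 0.10), with edgeR adjusted p of 0.990 and 0.804. The interaction of the compounds was -0.17 ± 0.15 (edgeR adjusted p = 0.999). None of the 8 genes passed edgeR's test in GW3965 against Control (0.0192% of all genes did, and 386 genes had an unadjusted p under 0.05). None passed with GW3965+CT99021 against CT99021 (0.0192% of all genes, 1016 at an unadjusted p under 0.05) or in the interaction (0% of all genes, 522 at an unadjusted p under 0.05). DESeq2 with the block also passed 0 of the 8 in these 3 comparisons.

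**Figure D2:**
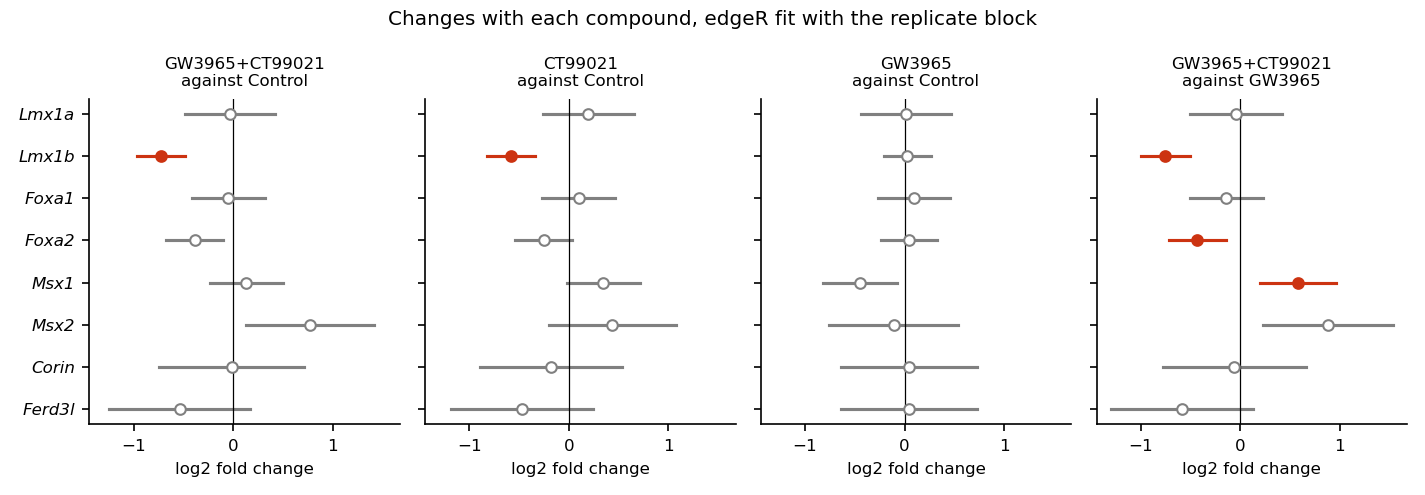
Log2 fold change of each gene with its 95% interval in 4 comparisons, fitted in edgeR with replicate number as a block, filled in red where the adjusted p was under 0.05. Lmx1b is left of 0 in the 3 comparisons that add CT99021 and at 0.03 with GW3965 alone.

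Lmx1a, the paralogue of Lmx1b, did not pass in any comparison. It had 11.4, 16.1 and 36.8 CPM with GW3965+CT99021 and 19.1, 15.1 and 37.2 CPM with CT99021 in libraries 1, 2 and 3. It had 11.6, 13.1 and 46.7 CPM with GW3965 and 10.0, 16.6 and 42.0 CPM in Control. The groups overlapped, and the libraries numbered 3 were the highest of each group. Its log2 fold change was 0.19 ± 0.21 with CT99021 against Control (95% interval -0.26 to 0.65, edgeR adjusted p = 0.559) and -0.03 ± 0.20 with both compounds against Control (-0.49 to 0.42, edgeR adjusted p = 0.926).

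The ratio of Lmx1a to Lmx1b per kilobase was higher in libraries with CT99021. With CT99021, alone or beside GW3965, it lay between 0.460 and 1.03 (median 0.611), and without CT99021 between 0.223 and 0.794 (median 0.311). Within each of the 3 replicate numbers both libraries with CT99021 lay above both without. The mean difference was 0.75 on the log2 scale (1.69-fold), with a two-sided exact permutation p of 0.00926, the smallest that shuffling treatments within numbers allows, and 0.0278 adjusted over 3 pairs of paralogues. The third pair, Msx1 and Msx2, had a ratio 0.890 times as high with CT99021 as without (exact permutation p = 0.583). This test was chosen after the levels were known. For Lmx1a/Lmx1b it uses the same Lmx1b counts as above, so it is not evidence separate from the fall of Lmx1b.

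**Figure D3:**
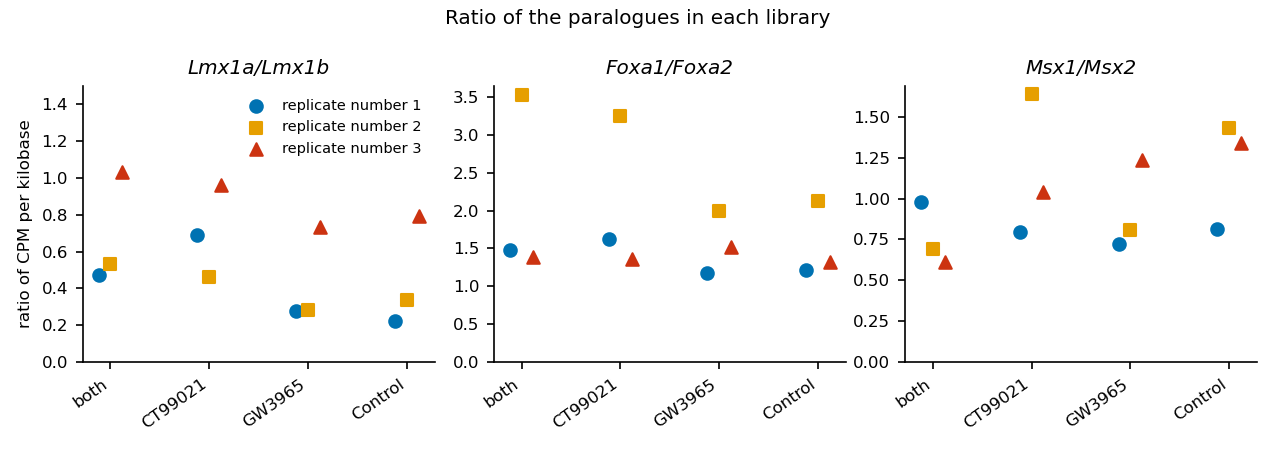
Ratio of paralogues per kilobase in each library by treatment group, with the replicate number as marker shape. Lmx1a/Lmx1b is higher with CT99021 within every replicate number, and Foxa1/Foxa2 is highest in the libraries numbered 2.

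Foxa2, the forkhead factor that specifies floor plate, was lower with both compounds than with GW3965 alone. In libraries 1, 2 and 3 it had 6.48, 4.70 and 26.9 CPM with GW3965+CT99021 and 6.98, 5.72 and 28.2 CPM with CT99021. It had 7.73, 7.19 and 37.2 CPM with GW3965 and 7.04, 7.96 and 33.5 CPM in Control. Groups overlapped, because libraries numbered 3 held several times the level of the others, while within each number the library with both compounds was below that with GW3965.

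Foxa2 fell by 0.43 ± 0.13 with GW3965+CT99021 against GW3965 (0.741-fold, edgeR adjusted p = 0.0400). Against Control its log2 fold changes were -0.38 ± 0.13 with both compounds (edgeR adjusted p = 0.0608) and -0.25 ± 0.13 with CT99021 (edgeR adjusted p = 0.215). The call of Foxa2 held in 7 of 19 alternatives with the block and was lost without any 1 of 9 libraries, Control replicates 1 and 3, CT99021 replicate 2 and all those of GW3965+CT99021 and GW3965, with edgeR adjusted p up to 0.134 in these.

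Foxa1, which acts beside Foxa2 in the same cells, did not pass in any comparison. It had 14.1, 24.5 and 55.1 CPM with GW3965+CT99021 and 16.7, 27.5 and 56.9 CPM with CT99021. It had 13.4, 21.2 and 83.3 CPM with GW3965 and 12.6, 25.0 and 65.2 CPM in Control. Levels went up with the library number in each group and overlapped between groups. Log2 fold changes were 0.10 ± 0.17 with CT99021 and -0.05 ± 0.16 with both compounds against Control, with edgeR adjusted p of 0.727 and 0.864. The ratio of Foxa1 to Foxa2 per kilobase was 1.37 to 3.53 with CT99021 and 1.18 to 2.13 without it, a 1.27-fold difference with an exact permutation p of 0.0370 (0.0556 adjusted over 3 pairs), and the 2 sets were apart in 2 of the 3 numbers.

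Msx1, the homeodomain factor downstream of Lmx1a, was higher with both compounds than with GW3965 alone. In libraries 1, 2 and 3 it had 10.2, 6.82 and 11.3 CPM with GW3965+CT99021 and 10.6, 6.29 and 18.1 CPM with CT99021. It had 6.67, 3.36 and 10.3 CPM with GW3965 and 8.94, 5.14 and 13.1 CPM in Control. The GW3965 libraries were the lowest of each number, and the groups overlapped. Msx1 rose by 0.58 ± 0.17 with GW3965+CT99021 against GW3965 (1.49-fold, edgeR adjusted p = 0.0369), where Control was not part of the comparison, and had log2 fold changes of 0.35 ± 0.16 with CT99021 and 0.13 ± 0.17 with both compounds against Control (edgeR adjusted p = 0.181 and 0.606).

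The Msx1 call held in 8 of 19 alternatives with the block and was lost without any 1 of 9 libraries, the 3 Control libraries, CT99021 replicate 2, GW3965+CT99021 replicates 1 and 2 and the 3 GW3965 libraries, with edgeR adjusted p up to 0.144. Msx1as, an antisense transcript listed at position 38211702 on the other strand, overlaps Msx1. It had 286 counts over the libraries with both compounds where Msx1 had 415, and it rose by 0.67 ± 0.17 in the same comparison (edgeR adjusted p = 0.0234). Whether the counting used strand is not given in the sources used here, so reads of the 2 cannot be told apart and Msx1 is uncertain.

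Msx2 did not pass in any comparison. It had 11.6, 10.98 and 20.6 CPM with GW3965+CT99021 and 14.9, 4.28 and 19.4 CPM with CT99021. It had 10.3, 4.64 and 9.25 CPM with GW3965 and 12.2, 4.005 and 10.9 CPM in Control. The libraries with both compounds lay above those with GW3965 with no overlap, where 15.4% of all genes tested did not overlap between these groups. The library with both compounds numbered 2 stood above the other 3 numbered 2. Its log2 fold change was 0.88 ± 0.29 with GW3965+CT99021 against GW3965 (edgeR adjusted p = 0.0587) and 0.77 ± 0.29 against Control (edgeR adjusted p = 0.0859). Without that library these were 0.53 and 0.43, with edgeR adjusted p of 0.223 and 0.319.

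Markers of mesenchyme also differed between these groups. Of 10 such genes 4 rose and 0 fell with both compounds against Control and against GW3965, with median log2 fold changes of 0.85 and 1.01, beside 0.01 over all genes in each. Of all 15608 genes tested, 1765 rose in the comparison with Control and 1841 in that with GW3965. Without the block 0 of the 10 passed in both comparisons, with edgeR adjusted p of at least 0.665 and 0.513. Their summed level was 961 to 3311 CPM with both compounds, 355.5 to 4073 CPM with CT99021, 254 to 2668 CPM with GW3965 and 240.5 to 3128 CPM in Control. In number 2 it was 961 CPM with both compounds, 254 with GW3965 and 240.5 in Control. The same groups had 2302, 1224 and 1458 CPM in number 1, and 3311, 2668 and 3128 CPM in number 3. How far the rise rests on the number 2 library with both compounds was not tested. The part of the mesenchyme genes in the Msx1 and Msx2 differences was not tested. Of 7 roof plate genes past the filter, 2 (Zic1 and Zic2) rose and 1 (Wnt3a) fell with both compounds against GW3965, and none of 8 neural crest genes passed there. Without the block 0 of the 7 roof plate genes passed (edgeR adjusted p of at least 0.207). The roof plate marker Gdf7 had a log2 fold change of 0.08 in that comparison (edgeR adjusted p = 0.917).

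Corin, the surface protease, did not pass against any treatment. It had 5.31, 3.41 and 55.1 CPM with GW3965+CT99021 and 2.94, 4.15 and 60.8 CPM with CT99021. It had 2.02, 4.10 and 95.9 CPM with GW3965 and 2.64, 4.80 and 75.5 CPM in Control. The 4 libraries numbered 3 were far above the other 8, which shared a range of 2.02 to 5.31 CPM. Log2 fold changes were -0.18 ± 0.32 with CT99021, -0.02 ± 0.33 with both compounds and 0.05 ± 0.31 with GW3965 against Control, each with a 95% interval wider than 1 log2 unit.

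Ferd3l, the floor plate helix-loop-helix factor, was the scarcest of the 8 by CPM. It had 1.11, 0.379 and 7.81 CPM with GW3965+CT99021 and 0.643, 0.943 and 8.39 CPM with CT99021. It had 0.782, 1.48 and 12.8 CPM with GW3965 and 1.20, 1.14 and 11.02 CPM in Control. As for Corin, the libraries numbered 3 were above all others. Its log2 fold changes of -0.47 ± 0.32 with CT99021 and -0.54 ± 0.32 with both compounds against Control did not pass (edgeR adjusted p = 0.355 and 0.258).

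For 7 of the 8 genes, all but Lmx1b, replicate number took a larger share of the variation than treatment. In the fit with the block, 8 of 8 passed a test of the 3 numbers, as did 66.3% of all genes. Libraries numbered 3 were higher than the mean of numbers 1 and 2 for 8 of 8 genes, against 28.8% of all genes tested that passed as higher. Corin was higher by 4.29 ± 0.22 on the log2 scale (19.6-fold), rank 53 of 15608 among increases, with an edgeR adjusted p of 3.8e-07. Ferd3l was higher by 3.35 ± 0.22 (10.2-fold), Foxa2 by 2.22 ± 0.09 (4.67-fold), Foxa1 by 1.80 ± 0.12 (3.48-fold) and Lmx1a by 1.55 ± 0.15 (2.92-fold), with edgeR adjusted p of at most 1.4e-05. Msx1 was higher by 0.91 ± 0.12, Msx2 by 0.79 ± 0.21 and Lmx1b by 0.37 ± 0.08. What the numbers stand for is not given in the labels.

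Of the total sum of squares of log2(CPM + 0.5) over the 12 libraries, replicate number took 97.3% for Corin, 96.4% for Foxa2, 96.2% for Foxa1, 94.5% for Ferd3l and 91.1% for Lmx1a. Treatment group took 73.0% for Lmx1b and number 23.9%. For Msx1 and Msx2 group took 21.6% and 20.6%, close to the median of 21.7% over all genes tested, whose median for number was 54.1%. Lmx1b was thus the 1 gene of the 8 with a larger share for treatment than for number.

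**Figure D4:**
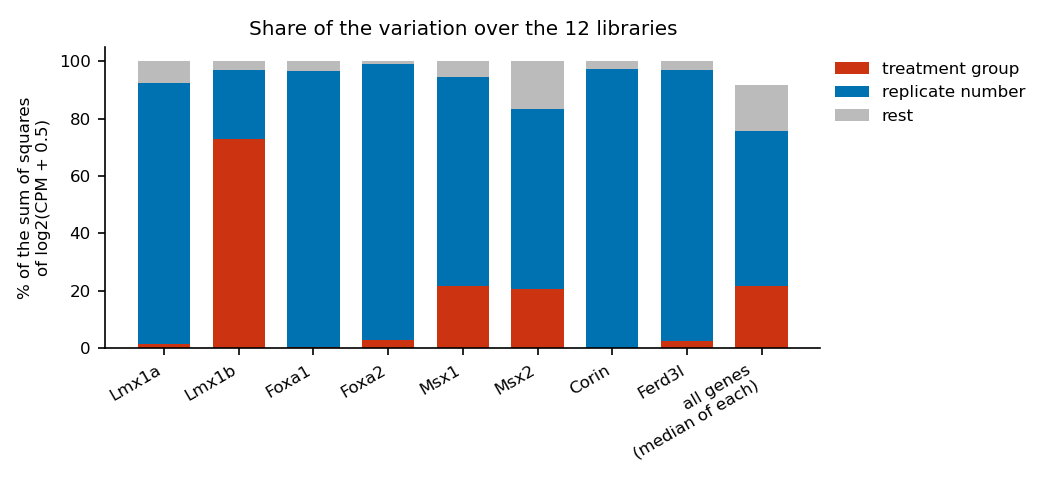
Share of the sum of squares of log2(CPM + 0.5) taken by treatment group, replicate number and the rest, for each gene and as separate medians over all genes tested, which need not add to 100%. Lmx1b has 73.0% for treatment, and Corin 97.3% for replicate number.

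Numbers 1 and 2 differed in another way. Foxa1 was higher in number 2 than in number 1 by 0.80 ± 0.15 on the log2 scale (1.74-fold), while Msx1 was lower by 0.77 ± 0.15 and Msx2 by 1.14 ± 0.26. These 3 of the 8 passed, against 25.4% of all genes tested, with edgeR adjusted p of 0.00368, 0.00423 and 0.00980. Foxa2 did not pass (-0.15 ± 0.12, edgeR adjusted p = 0.383), and Foxa1/Foxa2 per kilobase was 2.001 to 3.53 in number 2 against 1.18 to 1.62 in number 1.

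Other genes of the lineage split in both directions between the numbers. Of 33 other tested genes of floor plate and dopaminergic development, 15 were higher and 11 lower in number 3 than in the mean of numbers 1 and 2, where 28.8% of all genes were higher and 30.6% lower. Shh, the inducer of the floor plate, was 5.51-fold higher, and the axon guidance and matrix genes Ntn1, Slit2 and Spon1 were 3.99-fold, 3.84-fold and 3.66-fold higher. Rspo2, which encodes an enhancer of Wnt signalling, was 4.77-fold higher. Of the Shh pathway, Gli1 was at 0.350 and Ptch1 at 0.640 of the level in numbers 1 and 2, and the midbrain factors Otx2 and En1 were at 0.615 and 0.521. Lower levels in number 3 were not limited to midbrain genes: 5 of 5 midbrain markers were lower, with a median log2 fold change of -0.84, as were 4 of 5 forebrain markers, with a median of -1.18. Diencephalon markers were mixed. Of 5 tested, 2 were higher (Dbx1 2.50-fold and Sim1 2.28-fold) and 1 was lower (Nkx2-1 at 0.455), with a median of 0.31. Of 4 hindbrain and spinal cord markers tested 1 passed as lower, Gbx2 at 0.193 of the level in numbers 1 and 2. Their median of -2.73 rests partly on genes near 0 in number 2 as well as in number 3. Hoxb2 had means of 2.34, 0.0189 and 0.0212 CPM in numbers 1, 2 and 3, and Hoxa2 had 2.34, 0 and 0 CPM.

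Of the mesenchyme genes 10 of 10 were higher in number 3, with a median log2 fold change of 2.27, while 8 of 8 neural progenitor genes were lower, with a median of -0.75. Pdgfra, a receptor of mesenchymal cells, was 21.5-fold higher in number 3. Wnt check genes, 5 of 5, were lower there, with a median of -1.73. The part of these cell types in the levels of the 8 genes was not tested.

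Of 34 other listed genes of the floor plate and dopaminergic lineage 33 were tested, and Pitx3, a factor of mature dopaminergic neurons, was under the filter at 0.13 to 0.16 CPM in group means. With CT99021 against Control 1 rose and 9 fell, with a median of -0.18 beside 0.02 over all genes, of which 1285 rose and 1185 fell. With GW3965 alone 0 changed. Neurog2, a proneural factor of dopaminergic progenitors, rose by 2.04 ± 0.28. Th, the gene of tyrosine hydroxylase, fell by 1.33 ± 0.36 at low levels, 1.23 ± 0.47 CPM in Control and 0.48 ± 0.22 CPM with CT99021 (SD). Wnt1, the midbrain Wnt ligand, averaged 4.13 ± 1.02 CPM with both compounds, 3.76 ± 0.67 with CT99021, 15.1 ± 4.25 with GW3965 and 15.1 ± 5.47 in Control (SD, n = 3 each), and fell by 1.95 ± 0.29 with CT99021 against Control. Also lower were Rspo2 (-0.69 ± 0.17), Nkx2-2 (-0.64 ± 0.15), Foxj1 (-0.64 ± 0.17), Ptch1 (-0.55 ± 0.11), Calb1 (-0.55 ± 0.15) and Spon1 (-0.37 ± 0.11), with edgeR adjusted p of 0.00325 to 0.0398 over these genes, Wnt1 and Th.

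Shh (0.13 ± 0.14), Otx2 (-0.09 ± 0.09), En1 (0.08 ± 0.08) and Nr4a2 (0.12 ± 0.17) did not pass with CT99021. With both compounds against Control 1 rose and 8 fell, with a median of -0.25 beside 0.01 over all genes, of which 1765 rose and 1397 fell. Ddc, the enzyme after Th, was among the 8 (-0.82 ± 0.22) while Th and Spon1 were not. Against GW3965, both compounds gave 2 higher, Neurog2 and Gli2, and 9 lower, where 1841 of all genes rose and 1375 fell. Leaving out 1 library lowered the count of 10 with CT99021 for some libraries. The count came to 3, 2 and 4 when Control replicates 1, 2 and 3 were left out in turn, to 3 and 5 for CT99021 replicates 1 and 2, and to 6 for GW3965 replicate 1. Counts without each of the remaining libraries are not reported here, nor is the number of all genes passing in fits without 1 library. In the 8 libraries numbered 1 and 2 it was 10, and without the block 0.

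With both compounds the count of such genes was 5 without Control replicate 2 against Control, and against GW3965 it was 5 without GW3965+CT99021 replicate 2, 6 without GW3965 replicate 1 or 2 and 7 without GW3965+CT99021 replicate 3. Without the block, 1 passed against Control and 0 against GW3965.

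**Figure D5:**
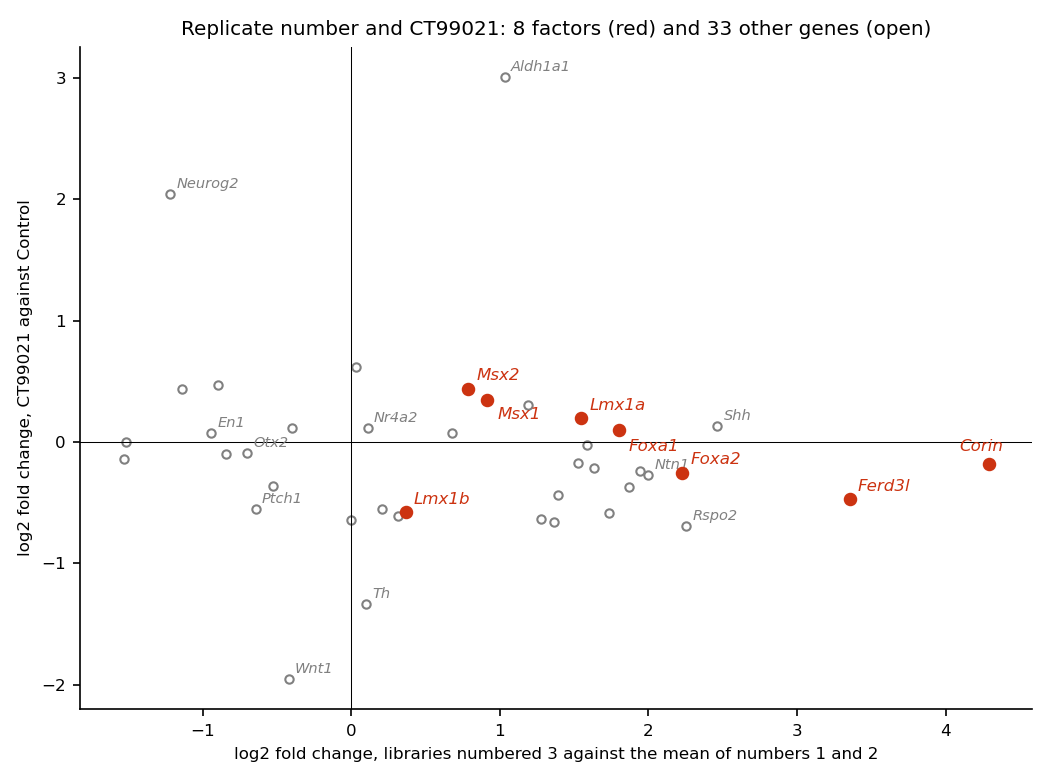
Log2 fold change with CT99021 against Control over that of libraries numbered 3 against the mean of numbers 1 and 2, for the 8 genes in red and 33 other genes of the lineage as open circles. Corin, Ferd3l and Foxa2 lie farthest right of the 8, at -0.18, -0.47 and -0.25 on the treatment axis, and Lmx1b lies near 0.37 on the number axis and at -0.58 on the treatment axis.

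After each replicate number's mean was taken out, the genes fell into different patterns over the 12 libraries, which share the libraries' depth and treatment groups. Lmx1b went with Foxa2 (Pearson r = 0.82), and Foxa2 went against Msx2 (r = -0.84), while Lmx1a went with Foxa1 (r = 0.77) and hardly with Lmx1b (r = -0.12). Before the numbers' means were taken out, Foxa2 and Corin had r = 0.97 and Foxa2 and Ferd3l r = 0.98. The genes with the most similar pattern after centring were Grk6, Stx5a and Itga3 for Lmx1b (r = 0.98 to 0.99), and Msx1as, Zdhhc7 and Ndufb8 for Msx1 (r = 0.94 to 0.98). Those of Corin included Prom1 (r = 0.91) and Dyrk3 (r = 0.83), those of Msx2 were Alx1, Rab15 and Bmp3 (r = 0.93 to 0.95), and those of Foxa2 were Sox21, Lrig3 and Gm5607 (r = 0.95 to 0.96). Those of Lmx1a were 9830132P13, Wnt2b and Veph1 (r = 0.92 to 0.95), those of Foxa1 Rnf44, C130074G19Rik and Bcr (r = 0.90 to 0.92), and those of Ferd3l Cyp4b1, Tmem121 and Mageh1 (r = 0.91 to 0.96). All were picked as the most similar of 15608 genes, so a high r was built into the choice. Before centring their r ran from -0.80 (Bcr with Foxa1) to 0.99 (Msx1as with Msx1).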

How the data were processed

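The authors deposited 1 table of whole-number read counts per gene for the 12 libraries, with no normalisation, together with a listed position, strand and transcript length per row. Per the submitters' processing notes, Bowtie and mm9 were used. Their roles, any version, how reads were counted, with which gene models, with or without strand and with what done to reads of several positions, is not given in the sources used here. Rows of 1217 repeat families, 0.196% to 0.643% of counts, stayed out of library sizes and tests.

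Counts were tested in edgeR 4.0.16 (R 4.3.3) by its quasi-likelihood test, with trimmed mean of M values (TMM) factors, the filterByExpr filter and Benjamini-Hochberg adjustment over all 15608 genes tested, at a threshold of 0.05. All 12 libraries entered 1 fit. The design as first set had no block. After group means were removed, same-numbered libraries correlated in each of 18 pairs (r = 0.553 to 0.836, median 0.773). On this evidence the numbers were taken to pair the libraries, which the labels do not state. The fit with the number as a block is used in the text unless stated otherwise. The common biological coefficient of variation was 12.7% with and 33.4% without the block. CPM are counts scaled to library size with TMM factors, and CPM per kb divide them by the deposited length. Errors are SE for log2 fold changes and SD for CPM. Each fit was run on data simulated under its own design, with a number effect only for the fit with the block. The outcome is not reported here, and a wrong pairing was not simulated. Alternatives were DESeq2 1.42.0, limma-voom 3.58.1, library totals, no filter, only the libraries compared, each library left out, and 8 or 7 libraries. Precision was limited by 3 libraries per group, and by counts for Ferd3l, with 621 in all.

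The genes and lists were chosen with earlier results of these data known. Named were the 8 genes in every comparison, the 3 rows most correlated with each, and, of the other lineage genes, those past the test with CT99021 or both compounds against Control plus Shh, Otx2, En1, Nr4a2 and Pitx3. Some genes that this rule names are not reported here. Other named genes were chosen after their values were seen.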

Additional observations from a re-analysis of the deposited data

How the results depend on the processing

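With the replicate block, the number of the 8 genes past the test was 1 with CT99021, 1 with both compounds against Control and 3 against GW3965. Of all genes tested 15.8%, 20.3% and 20.6% passed there. Without the block the number was 0, 0 and 0, beside 9, 18 and 12 of all 15608 genes. DESeq2 without the block passed 1 gene, Lmx1b, with both compounds against Control and 1 against GW3965. With the block and DESeq2, 2 genes passed with both compounds against Control (Lmx1b and Msx2). Fitted to the libraries of the comparison alone, 1 passed with both compounds against GW3965. Leaving out 1 library at a time gave 0 to 1 with CT99021, 1 to 2 with both compounds against Control and 1 to 4 against GW3965. Among the 8 libraries numbered 1 and 2, 3 genes passed the test between the numbers (Foxa1, Msx1 and Msx2). The shares of all genes past the test in these other settings are not reported here, so changes in the counts cannot be set against them.

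In the 7 libraries without those numbered 3 and GW3965+CT99021 replicate 2, 2 genes passed with both compounds against Control, Lmx1b and Corin, and Corin changed direction, with log2 fold changes of 0.95 against Control (edgeR adjusted p = 0.0408) and 1.25 against GW3965 (edgeR adjusted p = 0.0155). Only 1 library with both compounds is left there, assumed to vary like the other groups, and the cause was not tested. Over the 19 alternatives with the block, Lmx1b passed in 17 with CT99021, in 19 with both compounds against Control and in 19 against GW3965, and its direction was kept in each of these. In edgeR, the calls of Lmx1b needed the block, though DESeq2 without it passed Lmx1b with both compounds against Control. The edgeR calls of Foxa2 and Msx1 with both compounds against GW3965 also needed the block, with edgeR adjusted p of 0.928 and 0.787 without it.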
